A study of Ovis aries with 24 samples.

Results

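The ductus arteriosus and the aorta of newborn sheep were compared 12 hours after birth. The comparison rests on the 8 arrays titled as newborn ductus or newborn aorta, 4 of each, out of 24 arrays in the series. The other 16 arrays hold the same vessels from preterm fetuses (97 days of gestation in the series text, 100 in the titles) and near-term fetuses (136 and 140 days). The 8 near-term arrays serve here as the comparison before birth. All 24 arrays enter the estimate of the spread behind the standard errors and p-values. Each group came from 4 animals, and the labels do not say whether a ductus and an aorta with the same number came from 1 lamb. No genotype, strain or drug treatment is named for any group, and pregnant ewes and newborn lambs alike were killed with a solution of pentobarbital and phenytoin. The labels call the control vessel ascending aorta, while the protocol speaks of aortic pieces lying next to the ductus. RNA came from pieces of whole vessel, so that each value is an average over all cells of the piece. In such bulk samples fewer cells of a type and less RNA per cell cannot be told apart.

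Before birth the ductus shunts pulmonary arterial blood past the unexpanded lungs into the aorta, and prostaglandin E, low oxygen and nitric oxide keep its muscle relaxed. After birth oxygen rises and prostaglandin falls, the muscle contracts, and the thick wall loses its supply of oxygen from the lumen. Hypoxia of the wall, growth factor release, white cell adhesion and remodelling of the lining then turn constriction into permanent closure, whereas the neighbouring aorta keeps its lumen.

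A level is given below as the log2 of the processed spot signal over the array's own 75th percentile. A difference is the ductus mean minus the aorta mean on this scale, with the standard error of the limma fit after ±. A gene is called higher or lower in the ductus where the adjusted p (limma, Benjamini-Hochberg over all tested probes) is under 0.05. Levels of different genes come from different probes and are not set against each other. Of 13997 tested probes, 1416 were called, a share of 10.1%, with 721 higher in the ductus (5.15%) and 695 lower (4.97%). The 4 ductus and 4 aorta arrays did not overlap for 2818 probes (20.1%). Calls of at least 2-fold numbered 458 higher and 258 lower, and calls of at least 8-fold 39 and 16. The median difference over all tested probes was −0.28, and it was −0.10 with median centring and −0.03 with quantile normalisation. The split of calls moved with the centring, from 50.9% higher to 68.5% with median centring, which called 571 higher and 262 lower.

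The 8 newborn arrays shared 1 slide. All ductus arrays lay in row 1 and all aorta arrays in row 2 of it, so that vessel and slide row cannot be told apart. Between 68.7% and 72.0% of spots were well above background on the ductus arrays, against 66.4%, 69.6%, 81.8% and 91.2% on aorta replicates 1 to 4. The detection limit that the scanner software gives for the spike-in controls was above 1.5 on 0 ductus arrays and on 2 aorta arrays, replicates 3 and 4. Of the near-term arrays ductus replicates 2 and 4 and aorta replicate 1 were under it. Of the preterm arrays ductus replicates 2 and 3 and aorta replicate 1 were. A fit without the arrays above the limit therefore also has fewer arrays, and the 2 cannot be told apart in the calls it lost. Of 2788 tested probes not well above background on any ductus array, 1254 were above it on aorta replicates 3 and 4 and not on 1 and 2, and 0 the other way round. The 4748 probes that were not above background on all 8 arrays had a median difference of −1.26, and the 9249 that were had one of −0.10. For many of the dim genes that read lower in the ductus, the number of arrays that measured them therefore stands beside the value below. The median SD of a probe was 0.29 over the ductus arrays and 0.51 over the aorta arrays. With all arrays above the limit of 1.5 left out, the calls numbered 853, with 527 higher and 326 lower. They numbered 857 without ductus replicate 1, 930 without aorta replicate 3 and 944 without ductus replicate 4.

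**Figure D1:**
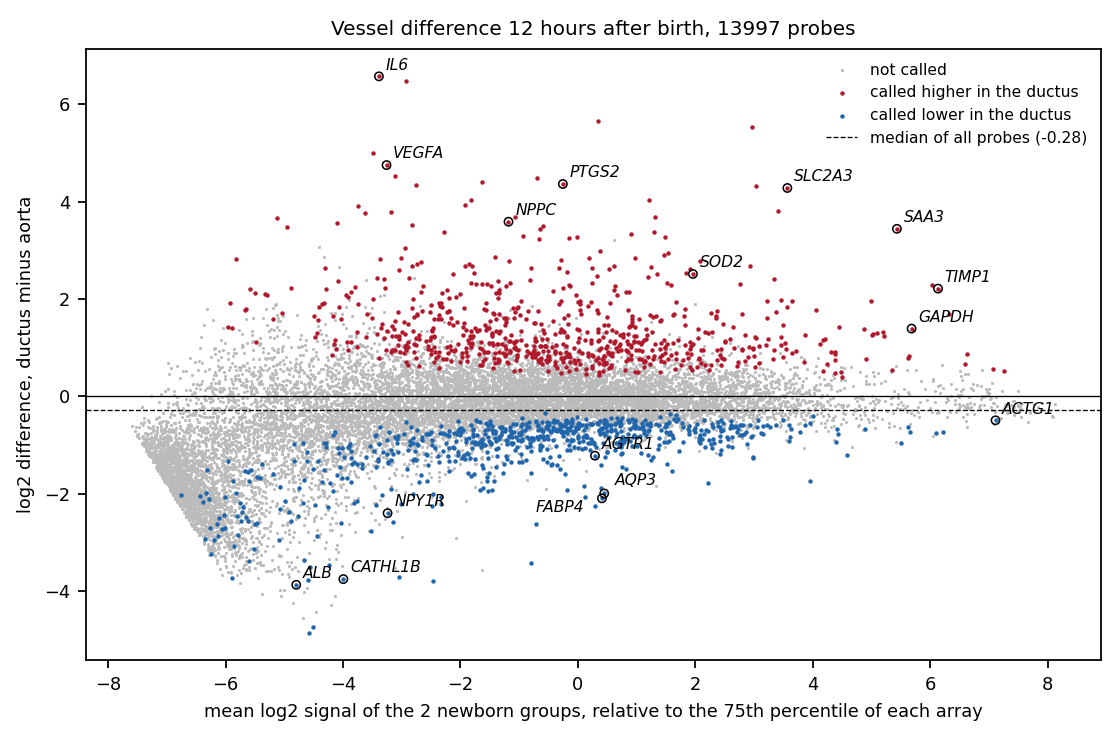
Log2 difference (ductus minus aorta, vertical axis) against the mean log2 signal of both newborn groups (horizontal axis) for 13997 tested probes, with calls in colour and 16 named genes circled. The cloud bends below 0 at its dim left end, and IL6, at a difference of 6.57, lies at the upper edge.

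Only part of the array carries gene names. Of its 15008 probes 1472 could be given 1 of 828 symbols, and 787 named genes were tested, each by its brightest probe. Of these genes 101 were called (12.8%), 73 higher (9.28%) and 28 lower (3.56%), and for 83 of the 101 no ductus array overlapped an aorta array. Calls of at least 4-fold numbered 22 higher and 11 lower among the named genes, and the median difference of all 787 was −0.47. The counts for gene groups below are to be read against these shares. The gene lists were chosen with earlier results of these data known, so that a larger share of calls in a list is partly a matter of that choice. Of the 101 genes, 23 kept their call under all alternatives run and with each newborn array left out in turn. They were IL6, VEGFA, IL1A, PTGS2, SLC2A3, SAA3, CHI3L1, SELP, C3, SOD2, JUNB, ICAM1, TIMP1, MCL1, LDHA, CD9, PTX3, RCAN1, ZFP36, ANXA2 and CREM, all higher, and HOXA7 and NPY1R, both lower. A fit of only the 8 newborn arrays ended 65 of the 101 calls, and leaving out the arrays above the detection limit ended 56. Among the genes described below, both endings held for FOS, SLC2A5, ANGPT2, CD40, IL18, ARG2, IGFBP2, IGFBP3, IGFBP4, IGFBP6, HSD11B1, PFKL, CXCL8, FAS, HOXA5, SNAI2, BAMBI, TNFRSF11B, NFKBIA, PTGS1, IGF1R, IL10, TXN, CTSB, HYAL2, FTH1, ACTG1, INHA, CCR10, AGTR1, AQP3, IL15 and CHRD. The calls of NPPC, EGFR, IRF1, NOS3, EGR1, TSPO, CD86, TLR2, DCN, HOXA4, ERBB2, BAC5 and CATHL1B ended in the fit of 8 arrays, and those of GAL, EDN1 and GAPDH without the arrays above the detection limit. The lost calls had adjusted p-values of 0.0507 to 0.188 in the fit of 8 arrays and of 0.0509 to 0.373 without the arrays above the limit, and the genes' own accounts below give further endings. Normexp background correction moved 35 of the 101 differences by over 1.5 times, all of them toward 0. This setting adds an offset of 50 to every signal, which draws the differences of dim probes toward 0 by construction. Of 82 other probes of these genes 50 were called in the direction of the gene, 25 differed in that direction without a call, and 7 had the opposite sign and no call.

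**Figure D2:**
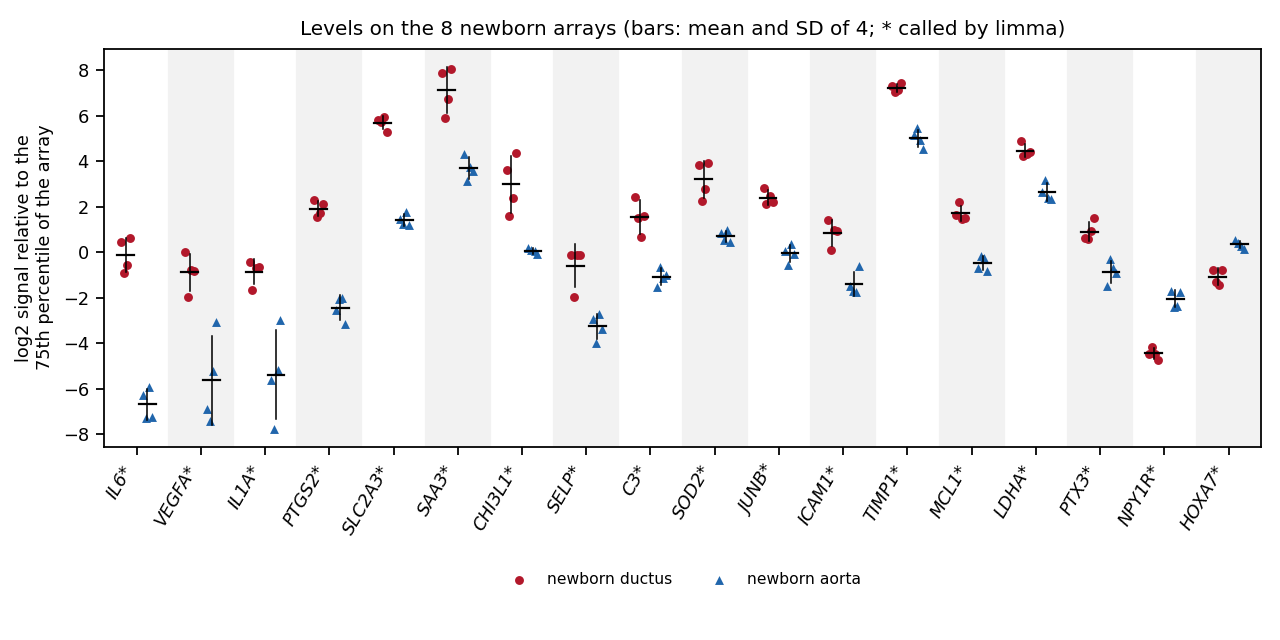
Log2 signal relative to the 75th percentile of the array for 18 of the genes called under all alternatives run, with red circles for the 4 newborn ductus arrays, blue triangles for the 4 newborn aorta arrays, and black bars for mean and SD. The groups do not overlap for any of the 18, and NPY1R and HOXA7 are the genes with the ductus arrays below the aorta arrays.

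Secreted mediators of inflammation held the largest difference among the named genes. IL6, a cytokine that drives the acute phase response, read 0.44, −0.91, −0.55 and 0.61 on the ductus arrays and −6.25, −7.27, −5.93 and −7.24 on the aorta arrays. All 4 ductus arrays measured it well above background and 0 aorta arrays did, which made it at least 42.4-fold higher (adjusted p = 2.07e-07). The fitted difference of 6.57 ± 0.54 became 2.88 with normexp background correction. IL1A, the interleukin 1 alpha gene, read −0.44, −1.65, −0.68 and −0.63 in the ductus and −5.59, −7.75, −5.19 and −2.98 in the aorta. Aorta replicates 3 and 4 were the arrays of that vessel that measured it, and all ductus arrays lay above all aorta arrays. The difference was 4.53 ± 0.73 (adjusted p = 0.000522), at 2.24 with normexp and 5.82 without the arrays above the detection limit, and a second probe differed by 3.90. CXCL8, the neutrophil chemoattractant interleukin 8, read 0.76, 0.47, 0.40 and 1.09 against 0.26, −1.24, −0.25 and −1.57. The gap between the vessels was narrow, at 1.38 ± 0.32 (2.6-fold, adjusted p = 0.00966), and the call ended with quantile normalisation (1.46, adjusted p = 0.122), without the arrays above the detection limit (1.17, 0.123) and in the fit of 8 arrays (0.113). IL18, a cytokine matured by the inflammasome, was 3.34-fold higher (1.74 ± 0.37, adjusted p = 0.00484), and its other probes differed by 1.07 and −2.32, neither called. The probe at −2.32 was above background on 0 ductus arrays and 1 aorta array.

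CHI3L1, a secreted chitinase-like glycoprotein of activated macrophages, read 3.64, 1.58, 2.39 and 4.38 in the ductus and 0.18, 0.09, 0.05 and −0.09 in the aorta. The aorta arrays lay within an SD of 0.11 while the ductus arrays spread over one of 1.25, all of them higher, by 2.94 ± 0.42 (7.68-fold, adjusted p = 0.000144). SAA3, an acute phase serum amyloid gene, read 7.90, 5.91, 6.73 and 8.06 against 4.34, 3.15, 3.75 and 3.59. Its ductus replicates stood in the order they had for CHI3L1, and the difference was 3.44 ± 0.66 (adjusted p = 0.00249). IL15, a cytokine that sustains lymphocytes, went the other way, at −6.06, −6.73, −4.87 and −4.75 in the ductus and −3.89, −3.50, −2.97 and −3.12 in the aorta. Measured on 2 of 4 ductus arrays, it was 4.69-fold lower (adjusted p = 0.00106), but the difference of −2.23 was −0.73 with normexp (adjusted p = 0.259) and −1.14 with quantile normalisation (adjusted p = 0.134). IL10, which dampens macrophages, was called at 0.79 ± 0.24 (adjusted p = 0.0429) with overlapping arrays, and lost its call under 5 alternatives (adjusted p up to 0.548, at 0.32 with normexp) and with 6 of 8 arrays left out, the exceptions being ductus replicates 2 and 3. A second IL10 probe, above background on 4 ductus and 0 aorta arrays, was called at a fitted 1.78 (adjusted p = 0.0384). Of 26 measured cytokines and mediators 6 were higher and 1 lower, while the median of the list was −1.34.

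Of 7 measured leukocyte adhesion genes 2 were called higher and 0 lower, with a median of 0.19, and of 5 cytokine and chemokine receptors 1 was higher and 1 lower, with a median of −1.19. ICAM1, which binds leukocyte integrins on endothelium, read 1.42, 0.09, 0.97 and 0.93 in the ductus and −1.48, −1.68, −1.75 and −0.60 in the aorta (2.23 ± 0.39, adjusted p = 0.00101). SELP, the P-selectin that captures rolling white cells, read −0.12, −1.97, −0.11 and −0.12 against −2.95, −3.98, −2.72 and −3.39 (2.68 ± 0.38, adjusted p = 0.000144). Ductus replicate 2 stood below the other ductus arrays for SELP and still above all aorta arrays. ICAM1 and SELP were the called adhesion genes. CXCR4, the receptor of the chemokine CXCL12, was 3.79-fold higher (1.92 ± 0.32, adjusted p = 0.000604), at 0.90 with normexp (adjusted p = 0.0828). CCR10, another chemokine receptor, was 2.29-fold lower (−1.19 ± 0.31, adjusted p = 0.0172), a call that ended with normexp (adjusted p = 0.159) and without aorta replicate 4 (0.0623) or ductus replicate 1 (0.0525). CD40, a costimulatory receptor on none of the lists, read −0.62, −1.61, −0.57 and −1.01 in the ductus and −1.94, −5.23, −2.48 and −2.60 in the aorta. Aorta replicate 2 read lowest, and the difference of 2.11 ± 0.48 (adjusted p = 0.00901) was 1.39 without it and 1.39 with normexp.

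Of 16 measured genes of innate recognition and complement 4 were higher and 0 lower, with a median of −0.51. PTX3, a soluble pattern recognition protein, read 0.62, 0.58, 0.94 and 1.52 in the ductus and −1.48, −0.31, −0.69 and −0.92 in the aorta (1.76 ± 0.29, adjusted p = 0.000596). C3, the central complement component, read 2.44, 1.51, 0.66 and 1.62 against −1.54, −0.64, −1.14 and −0.98 (2.63 ± 0.39, adjusted p = 0.000239). For both, every ductus array lay above every aorta array. TLR2, a receptor of bacterial lipopeptides, differed by 1.34 ± 0.33 (adjusted p = 0.0145) with overlapping arrays, a call that ended with normexp (0.87, adjusted p = 0.0748) and without ductus replicate 4 (0.0577). NFKBIA, the inhibitor that NF-kB induces against itself, differed by 0.95 ± 0.30 (adjusted p = 0.0476), and lost its call under 5 alternatives (up to 0.105) and without any 1 of aorta replicates 1 and 4 and ductus replicates 1, 3 and 4 (up to 0.143). Among 10 genes of interferon response and antigen presentation IRF1, a transcription factor, was called higher (1.74 ± 0.55, adjusted p = 0.0495) and 0 lower. Its arrays overlapped, the difference was 1.10 with normexp, and the call ended with no filter on dim probes (0.0531) and without any 1 array but aorta replicate 4 and ductus replicate 2 (up to 0.132).

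Immediate early genes, whose messages appear soon after a stimulus without new protein synthesis, had 6 of 9 measured members higher and 0 lower, with a median difference of 1.59. JUNB, an AP-1 transcription factor, read 2.83, 2.11, 2.47 and 2.22 in the ductus and 0.07, −0.54, 0.37 and −0.05 in the aorta (2.45 ± 0.41, adjusted p = 0.000771). FOS, its partner, read −1.88, −0.45, 0.79 and −0.29 against −2.30, −3.97, −3.49 and −2.79. Ductus replicate 1 lay close to aorta replicate 1, and the difference of 2.68 ± 0.65 (adjusted p = 0.0128) lost its call without ductus replicate 3 (0.0501). EGR1, a zinc finger factor, was 3.00-fold higher (1.59 ± 0.34, adjusted p = 0.00524), and its 3 other probes differed by 1.02 to 1.84. ZFP36, which promotes the decay of cytokine messages, read 3.05, 3.30, 3.54 and 2.71 against 1.37, 1.70, 2.13 and 0.98 (1.61 ± 0.29, adjusted p = 0.0016). Both vessels put replicate 3 highest and replicate 4 lowest for ZFP36, and the groups did not overlap.

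RCAN1 and CREM, the remaining called members, are feedback regulators of calcium and cyclic AMP signals. RCAN1, an inhibitor of the phosphatase calcineurin, read 4.08, 4.31, 3.72 and 4.01 in the ductus and 1.57, 2.73, 2.88 and 2.49 in the aorta (1.61 ± 0.34, adjusted p = 0.00488). CREM, a factor at cyclic AMP response elements, read −0.11, −0.03, −0.18 and −0.34 against −1.22, −1.44, −1.41 and −1.15. The difference was small against most rises named here but the arrays lay close together (1.14 ± 0.15, adjusted p = 5.83e-05). A second CREM probe was called at 0.80, while the other 2, above background on 0 ductus arrays and 1 aorta array, differed by −1.24 and −1.18 and were not called. MYC differed by 0.39 ± 0.36 (adjusted p = 0.441), JUND by 0.29 ± 0.51 (0.699) and JUN by −0.09 ± 0.53 (0.921), none of them called and all with overlapping arrays.

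Hypoxia targets and sugar handling formed the next group. VEGFA, the growth factor that hypoxia-inducible factors switch on, read 0.03, −1.95, −0.80 and −0.83 in the ductus and −6.88, −7.40, −5.21 and −3.04 in the aorta. Aorta replicates 3 and 4 were the arrays of that vessel that measured it, and no aorta array reached a ductus array. The difference of 4.75 ± 0.72 (adjusted p = 0.000279) ran from 2.31 with normexp to 6.25 without the arrays above the detection limit, and a second probe differed by 5.0. SLC2A3, the high-affinity glucose transporter GLUT3, was bright on every array, at 5.84, 5.73, 5.94 and 5.30 in the ductus and 1.48, 1.23, 1.77 and 1.22 in the aorta. The gap of 4.28 ± 0.29 (19.4-fold, adjusted p = 2.44e-08) stayed between 4.20 and 4.52 over the alternatives and left-out arrays, and a second probe differed by 4.32. SLC2A5, the fructose transporter, was 5.29-fold higher (2.40 ± 0.63, adjusted p = 0.0194). The value for SLC2A5 was 1.03 with normexp (adjusted p = 0.184), and the call ended without aorta replicate 1 (0.062), ductus replicate 1 (0.0514) or ductus replicate 4 (0.0771). SLC2A1, the basal glucose transporter GLUT1, differed by 0.84 ± 0.39 (adjusted p = 0.167), with aorta replicate 4 among the ductus arrays, and was called without the arrays above the detection limit (1.37, 0.0398).

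Of 12 measured genes of the hypoxia response 3 were called higher and 0 lower, with LDHA beside SLC2A3 and VEGFA, with a median of 0.47. HIF1A itself, the oxygen-regulated subunit, read −3.86 to −3.23 in the ductus and −5.02, −5.25, −4.93 and −1.95 in the aorta, and was not called (0.79 ± 0.70, adjusted p = 0.426). Without the arrays above the detection limit HIF1A differed by 1.63 and was called (0.0128), while with normexp it differed by 0.0059. Of 8 measured glycolysis genes 4 were higher and 0 lower, with a median of 0.93. LDHA, which makes lactate from pyruvate, read 4.88, 4.26, 4.32 and 4.43 against 2.67, 3.19, 2.40 and 2.33 (1.83 ± 0.26, adjusted p = 0.000246). GAPDH, a middle step of the pathway, read 6.73, 6.24, 6.16 and 6.37 against 5.33, 5.51, 4.61 and 4.49 (1.39 ± 0.26, adjusted p = 0.00193). Both groups of arrays stood apart for these 2 enzymes, and of 4 further GAPDH probes 2 were called at 1.33 and 1.25 while the other 2 differed by 0.11 and −0.38. PFKL, a phosphofructokinase, differed by 1.43 ± 0.33 (adjusted p = 0.00892) and HK1, which traps glucose in the cell, by 2.17 ± 0.64 (0.0362). HK1 lost its call without any 1 of aorta replicates 3 and 4 and the 4 ductus replicates (adjusted p up to 0.107) and with a replicate block (0.0521). ALDOA, an aldolase, differed by 0.48 ± 0.27 (0.233), and the muscle forms ENO3 by −0.51 ± 0.27 (0.214) and PFKM by −0.59 ± 0.39 (0.3, with 1 aorta value missing), none of them called.

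Genes of mitochondria and energy gave 0 calls of 8 in the limma test (3 at an unadjusted p under 0.05), all 8 differences lying below 0 with a median of −1.08. Of all 787 named genes 543 also lay below 0, and the probes not above background on all 8 newborn arrays had a median of −1.26. AQP3, a channel for water and glycerol, was lower, at −0.58, −1.0, −0.34 and −0.28 in the ductus and 1.80, −0.12, 2.21 and 1.89 in the aorta. Aorta replicate 2 read close to the ductus arrays, and the difference was −2.0 ± 0.44 (adjusted p = 0.00685). Of 20 measured transporters 3 were higher and 1 lower.

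Among genes tied to the tone of the ductus, both cyclooxygenases were higher. PTGS2, the inducible form, read 2.29, 1.56, 1.74 and 2.11 in the ductus and −2.54, −2.05, −2.0 and −3.16 in the aorta. The lowest ductus array exceeded the highest aorta array by more than the spread of either group, and the difference was 4.36 ± 0.30 (20.5-fold, adjusted p = 2.44e-08). Another PTGS2 probe was above background on 0 ductus arrays and 1 aorta array and differed by −1.94 (adjusted p = 0.244). PTGS1, the constitutive form, read 2.22, 1.99, 2.66 and 2.55 against 1.20, 1.49, 1.68 and 1.55 (0.87 ± 0.21, adjusted p = 0.0103). These were the 2 called of 9 measured prostanoid genes. SLCO2A1, which takes up prostaglandins for breakdown, differed by 0.81 ± 0.33 (95% interval 0.12 to 1.51, adjusted p = 0.124), and 3 of the 4 aorta arrays lay below all ductus arrays. SLCO2A1 was called higher without the arrays above the detection limit (1.19, adjusted p = 0.0265), with median centring (0.99, 0.00557), with quantile normalisation (0.80, 0.0228) and without aorta replicate 4 (0.0271). The prostaglandin E receptors PTGER2 and PTGER4 were above background on 0 ductus arrays and on 2 aorta arrays, and PTGER3 on 2 ductus and 3 aorta arrays. Their intervals ran from −5.09 to 0.57, −4.57 to 0.27 and −1.97 to 0.88, and none was called (adjusted p = 0.254, 0.217 and 0.582).

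Of 17 vasoactive peptides and receptors 3 were called higher and 2 lower, with a median of −0.39, and of 8 genes of nitric oxide and cyclic nucleotides 2 were higher and 0 lower, with a median of −0.65. EDN1, the vasoconstrictor endothelin, read −1.38, −2.02, −1.26 and −1.91 in the ductus and −3.91, −2.61, −3.64 and −3.36 in the aorta (1.74 ± 0.34, adjusted p = 0.00266, at 0.94 with normexp). NOS3, endothelial nitric oxide synthase, read −0.08, 1.26, 0.87 and 0.19 against −0.98, −1.45, −1.45 and −0.29 (1.60 ± 0.35, adjusted p = 0.00589). Neither gene had overlapping arrays. NPPC, the C-type natriuretic peptide of endothelium, read −0.12, 1.88, 0.35 and 0.33 against −6.12, −4.18, −2.0 and 0.40. The aorta arrays spread widely, and aorta replicate 4 lay among the ductus arrays. The difference of 3.58 ± 0.99 (adjusted p = 0.0246) was 5.76 without the arrays above the detection limit, and the call ended without aorta replicate 1 (0.0769), aorta replicate 2 (0.0588) or ductus replicate 2 (0.0732). ARG2, an arginase that competes with nitric oxide synthase for arginine, differed by 1.67 ± 0.48 (adjusted p = 0.0316) with overlapping arrays. It was at 0.89 with normexp (0.147) and lost its call without aorta replicates 1 or 3 or ductus replicates 1 or 2 (up to 0.112). GUCY1B1, a subunit of the nitric oxide receptor, differed by −0.80 ± 0.27 (adjusted p = 0.0645) without overlap, and was called with a replicate block (0.00836) and among probes above background on all arrays of a newborn group (0.0405).

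NPY1R and AGTR1 were the vasoactive genes called lower. NPY1R, through which neuropeptide Y acts on muscle, read −4.45, −4.14, −4.45 and −4.72 in the ductus and −1.70, −2.38, −2.35 and −1.73 in the aorta (−2.40 ± 0.34, adjusted p = 0.000131, at −1.58 with normexp). AGTR1, the constricting angiotensin receptor, read −1.14, −0.40, 0.36 and −0.10 against 0.75, 1.30, 1.11 and 0.43. The nearest arrays almost touched, and the difference of −1.22 ± 0.37 (adjusted p = 0.0429) lost its call with median centring (0.182) and without any 1 of aorta replicates 1 to 3 and ductus replicates 1, 2 and 4 (up to 0.15). AGTR2, the opposing receptor, differed by 1.40 ± 0.56 (adjusted p = 0.114), and was called with quantile normalisation (1.79, 0.0437) and with a replicate block (0.0202). The endothelin receptors EDNRA and EDNRB differed by −0.67 ± 0.87 (0.596) and 0.14 ± 0.50 (0.861), and turned to 0.63 without the arrays above the detection limit and to −0.11 with normexp, respectively. ACE, which makes angiotensin II, was above background on 0 ductus and 3 aorta arrays and was not called (−2.72 ± 1.33, 0.183). GAL, the neuropeptide galanin, was measured on 3 ductus and 0 aorta arrays and was at least 2.15-fold higher (adjusted p = 0.00765), but its fitted 2.81 was 0.29 with normexp (0.677). TGFB1, a growth factor that induces matrix, differed by 0.57 ± 0.20 (0.0703), and was called with a replicate block (0.018) and among probes above background on all arrays of a newborn group (0.047). JAG1, a Notch ligand, differed by 0.44 ± 0.25 (0.24), and its other probes by −2.24 and −2.41, neither called. In all, 9 of the 20 measured genes of the ductus panel were called, 7 higher and 2 lower. The panel, like the lists, was chosen with earlier results of these data known.

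**Figure D3:**
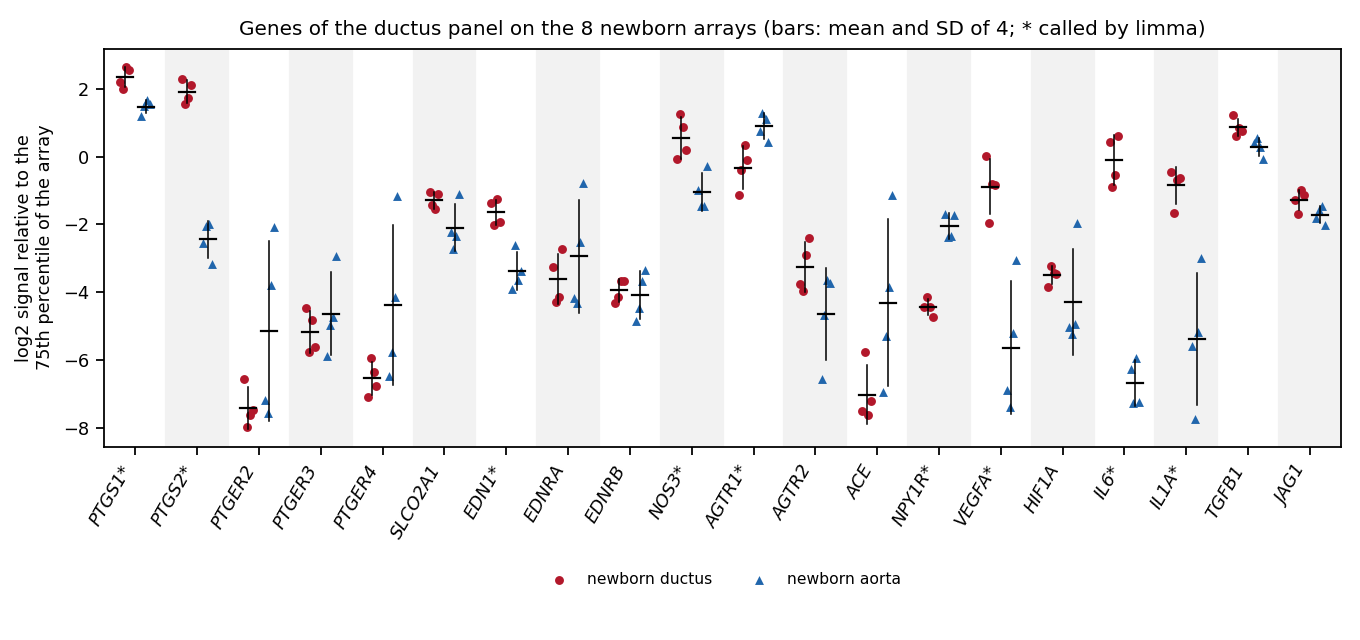
Log2 signal relative to the 75th percentile of the array for the 20 measured genes of the ductus panel, with red circles for newborn ductus, blue triangles for newborn aorta, and black bars for mean and SD of 4 arrays. PTGS1, PTGS2, EDN1, NOS3, VEGFA, IL6 and IL1A lie above the aorta without overlap, NPY1R and AGTR1 lie below it, and the aorta arrays of PTGER2, PTGER4 and ACE reach from the level of the ductus arrays to far above it.

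Contractile genes gave 1 call of 8. ACTG1, a cytoplasmic actin, read 6.43, 6.95, 7.26 and 6.81 in the ductus and 7.29, 7.43, 7.46 and 7.24 in the aorta (−0.49 ± 0.14, adjusted p = 0.0257). The arrays overlapped at the edge, and the call ended with median centring (−0.32, adjusted p = 0.47), normexp (0.111) and quantile normalisation (0.0683), and without aorta replicate 3 (0.0748), ductus replicate 1 (0.101) or ductus replicate 4 (0.0658). CNN1, smooth muscle calponin, read 5.90, 6.35, 6.29 and 5.54 against 6.41, 6.32, 6.22 and 5.57 (95% interval of the difference −0.53 to 0.30). MYLK, myosin light chain kinase, had an interval of −1.14 to 1.23 and MYL6, a myosin light chain, one of −0.67 to 0.14. None of these 3 was called.

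The matrix and its turnover held bright differences. TIMP1, an inhibitor of matrix metalloproteinases, read 7.31, 7.04, 7.13 and 7.45 in the ductus and 5.14, 5.46, 4.94 and 4.56 in the aorta (2.21 ± 0.19, adjusted p = 4.49e-07). DCN, the collagen-binding proteoglycan decorin, read 6.1, 5.91, 5.55 and 5.43 against 4.63, 4.89, 4.61 and 3.63 (1.31 ± 0.25, adjusted p = 0.00265). ANXA2, a cell surface cofactor of plasminogen activation, read 5.83, 5.25, 5.34 and 5.81 against 4.41, 4.43, 4.06 and 3.77 (1.39 ± 0.15, adjusted p = 8.58e-06). None of the 3 had overlapping arrays. TNFRSF11B, the decoy receptor osteoprotegerin, differed by 0.98 ± 0.26 (adjusted p = 0.0204). It was at 0.55 without the arrays above the detection limit (0.181) and lost its call with median centring (0.0572) and without aorta replicate 3 (0.0633), aorta replicate 4 (0.0746) or ductus replicate 1 (0.0646). CTSB, a lysosomal protease, and HYAL2, a hyaluronidase, were 1.51-fold and 1.48-fold higher (adjusted p = 0.0416 and 0.0429) with overlapping arrays. CTSB lost its call under 5 alternatives (adjusted p up to 0.286) and without any 1 array but aorta replicate 2 and ductus replicate 3 (up to 0.146). HYAL2 lost it under 4 (up to 0.3) and without any 1 array but aorta replicates 1 and 3 and ductus replicate 4 (up to 0.13). Of 8 proteases and inhibitors 3 were higher and 0 lower, and of 15 matrix and adhesion genes 2 were higher and 0 lower, with medians of 0.73 and −0.12. The fibrillar collagens COL3A1 (−0.75 ± 0.49, adjusted p = 0.286) and COL1A1 (−0.44 ± 0.31, 0.321) were not called.

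Growth factors, their receptors and binding proteins gave 8 calls higher and 1 lower of 36 measured, with a median of 0.03. The binding proteins of insulin-like growth factors made up 4 of the 8. IGFBP3, the main carrier in plasma, read 2.66, 2.06, 2.69 and 2.34 in the ductus and 0.76, 1.75, 0.55 and 0.06 in the aorta (1.66 ± 0.33, adjusted p = 0.00287). IGFBP6, which prefers IGF2, read 5.07, 4.20, 4.50 and 5.24 against 3.65, 3.86, 3.65 and 3.19 (1.17 ± 0.19, adjusted p = 0.000707). IGFBP2 was 2.27-fold higher (adjusted p = 0.00594), and IGFBP4, at 1.44-fold (0.0465), lost its call under 6 alternatives (up to 0.301) and with 6 of 8 arrays left out, the exceptions being ductus replicates 2 and 3. IGF1R, the receptor, differed by 0.84 ± 0.25 (adjusted p = 0.0411) with overlapping arrays, and lost its call with median centring (0.0799) and without any 1 array but aorta replicate 2 and ductus replicate 3 (up to 0.119). Its other probes differed by −0.10 and −0.06.

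ANGPT2, an antagonist of the TIE2 receptor that loosens vessel linings, read −1.96, −2.37, −1.73 and −2.61 in the ductus and −4.71, −2.92, −4.70 and −5.25 in the aorta (2.23 ± 0.61, adjusted p = 0.0245). Aorta replicate 2 lay closest to the ductus arrays, and the call ended with normexp (0.74, adjusted p = 0.274) and without any 1 of aorta replicates 1, 3 and 4 and ductus replicates 1 and 3 (up to 0.0761). TEK, which encodes TIE2, was not called (0.88 ± 0.47, 0.215), and KDR, a VEGF receptor, was not either (0.47 ± 0.25, 0.219). TEK was called without aorta replicate 1 (0.00808) and KDR with quantile normalisation (0.84, 0.0237), while other probes read lower in the ductus, by −1.75 for TEK and by −2.93 and −1.36 for KDR, none called. EGFR, the epidermal growth factor receptor, read −2.74, −2.79, −2.70 and −2.98 against −6.05, −5.95, −4.21 and −2.58. The ductus arrays lay close together while the aorta arrays spread widely, and the difference of 1.90 ± 0.52 (adjusted p = 0.0232) was 0.43 with normexp (0.384) and 3.20 without the arrays above the detection limit. The EGFR call ended without aorta replicates 1 or 2 or ductus replicates 1 or 3 (up to 0.075). ERBB2, a receptor of the same family, was 5.98-fold lower (−2.58 ± 0.71, adjusted p = 0.024, at −1.49 with normexp), and lost its call without any 1 of aorta replicates 3 and 4 and ductus replicates 1, 3 and 4 (up to 0.0846).

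Developmental regulators showed calls in both directions. SNAI2, a repressor of epithelial genes in neural crest, read 0.51, 0.14, 0.17 and −0.23 in the ductus and −1.04, −0.66, −0.62 and −1.27 in the aorta (1.04 ± 0.20, adjusted p = 0.00265). HOXA7, a homeobox factor of position along the body, read −0.76, −1.29, −1.46 and −0.76 against 0.52, 0.41, 0.30 and 0.16 (−1.42 ± 0.27, adjusted p = 0.00257). Its neighbours in the cluster, HOXA4 and HOXA5, were called in the opposite direction, at 1.04 ± 0.28 (0.0217) and 1.05 ± 0.33 (0.0461). HOXA4 lost its call with normexp (0.1) and without aorta replicates 1, 2 or 3 or ductus replicate 1 (up to 0.0654), and HOXA5 under 5 alternatives (up to 0.4) and without any 1 array but aorta replicate 2 (up to 0.128). Of 11 patterning genes 3 were higher and 1 lower.

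BMP2, a bone morphogenetic protein, read −3.64, −2.73, −2.44 and −1.87 in the ductus and −5.35, −5.24, −4.95 and −4.12 in the aorta (2.24 ± 0.48, adjusted p = 0.0053, 0.71 and 0.2 with normexp). BAMBI, a decoy receptor of the same family, was 2.05-fold higher (1.03 ± 0.23, adjusted p = 0.0082). CHRD, the BMP antagonist chordin, was above background on 0 ductus and 3 aorta arrays and was at least 2.04-fold lower (adjusted p = 0.0459). INHA, the inhibin alpha subunit, was 1.70-fold lower (−0.77 ± 0.24, adjusted p = 0.0453) with overlapping arrays. CHRD lost its call under 4 alternatives (up to 0.181) and without any 1 array but aorta replicate 2 (up to 0.145), and INHA under 5 (up to 0.373) and without any 1 array but aorta replicate 2 and ductus replicate 2 (up to 0.153). Of 30 genes of the TGF-beta, BMP, activin and Notch families 1 was higher and 2 lower, with a median of −0.24.

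Stress and survival genes were led by SOD2 and MCL1. SOD2, the mitochondrial superoxide dismutase that NF-kB induces, read 3.85, 2.27, 2.77 and 3.95 in the ductus and 0.85, 0.55, 0.96 and 0.44 in the aorta (2.51 ± 0.28, adjusted p = 8.26e-06). MCL1, which protects cells from apoptosis and turns over quickly, read 1.66, 2.21, 1.47 and 1.5 against −0.67, −0.15, −0.26 and −0.82 (2.18 ± 0.23, adjusted p = 5.09e-06). For both, the nearest arrays of the vessels lay more than 1 log2 unit apart. FTH1, the ferritin heavy chain, differed by 0.51 ± 0.14 (adjusted p = 0.0282) and TXN, thioredoxin, by 0.71 ± 0.22 (0.045). Both ended with median centring (0.184 and 0.0632) and normexp (0.217 and 0.0642), FTH1 without aorta replicate 4 or ductus replicates 1 to 3 (up to 0.101) and TXN with a replicate block (0.0741) and without any 1 array but aorta replicates 2 and 4 (up to 0.127). FAS, a death receptor, differed by 1.24 ± 0.34 (0.0241) with overlapping arrays and lost its call with normexp (0.297), with quantile normalisation (0.0729) and without aorta replicates 1 to 3 or ductus replicates 1 or 4 (up to 0.0897). Of 11 genes of oxidative stress and metals 3 were higher, of 9 of cell death and survival 2, and 0 were lower in either.

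Further calls fell in none of these groups. CD9, a tetraspanin of the cell surface, read 0.13, −0.51, −0.30 and −0.14 in the ductus and −1.70, −1.59, −1.94 and −2.84 in the aorta (1.81 ± 0.23, adjusted p = 3.8e-05). TSPO, a mitochondrial protein that activated macrophages carry, read 3.85, 2.69, 3.00 and 3.87 against 1.81, 1.95, 1.98 and 1.97 (1.43 ± 0.24, adjusted p = 0.000803). Both were free of overlap. HSD11B1, which regenerates cortisol, was 3.00-fold higher (1.58 ± 0.40, adjusted p = 0.0159), the 1 call of 19 steroid and retinoid genes, and lost it with normexp (0.0533) and without ductus replicates 1 (0.0541) or 4 (0.0624). Of 8 chaperones and 4 cell cycle genes 0 were called by limma (1 and 1 at an unadjusted p under 0.05), and PCNA, the replication clamp, differed by −0.63 ± 0.28 (0.152). Of 14 lipid genes FABP4 was called lower and 0 higher, and of 6 coagulation genes ANXA2 was called higher and 0 lower. Of 21 ribosomal and translation genes 1 was called higher and 1 lower. The 412 named genes in no list held 13 higher and 10 lower calls.

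**Figure D4:**
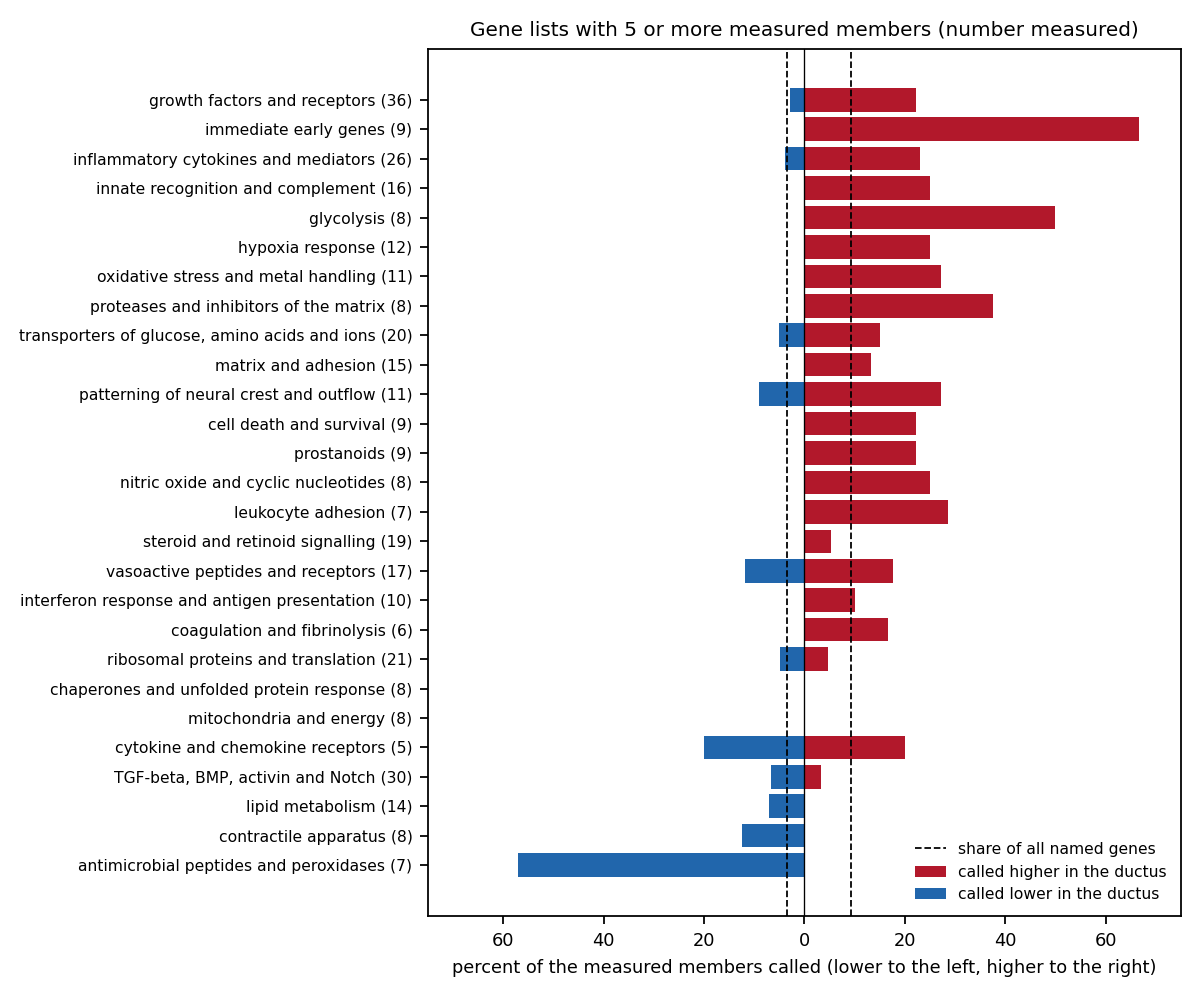
Percent of the measured members of each gene list with at least 5 of them (number measured in brackets) called higher in the ductus (red, to the right) or lower (blue, to the left), with dashed lines at the shares of all named genes, 9.28% and 3.56%. Immediate early genes, with 6 of 9 called higher, and antimicrobial peptides, with 4 of 7 called lower, reach furthest to either side. The lists were chosen with earlier results of these data known.

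Of the 28 genes called lower, 20 were well above background on all 8 newborn arrays. Antimicrobial peptides and peroxidases gave 4 calls lower and 0 higher of 7, with a median of −3.07. CATHL1B, a neutrophil cathelicidin, read −3.49, −7.10, −5.40 and −7.50 in the ductus and −2.13, −1.0, −3.16 and −2.18 in the aorta (−3.75 ± 1.08, adjusted p = 0.031). BAC5, another, read −3.88, −6.68, −6.58 and −6.70 against −2.37, −2.09, −3.66 and −1.89 (−3.46 ± 1.08, adjusted p = 0.0467). Ductus replicate 1 was the only ductus array that measured either, and since cathelicidins are near-identical copies of each other, their probes may read several of them. Both lost their call with normexp (−1.69, adjusted p = 0.0736, and −1.54, 0.0649), with quantile normalisation (0.12 and 0.114), with a replicate block (0.0635 and 0.0759) and with most arrays left out, the exceptions being aorta replicate 3 and ductus replicate 1 for CATHL1B and ductus replicate 1 for BAC5 (up to 0.102 and 0.115). Second probes differed by −3.15 for CATHL1B, not called (adjusted p = 0.0904), and by −3.78 for BAC5, called (0.0352). SC5, a further member, was 3.86-fold lower (adjusted p = 0.00931), at −0.93 with normexp (0.0951) and −1.03 with quantile normalisation (0.114). LPO, lactoperoxidase, was above background on 0 ductus and 3 aorta arrays and was at least 2.49-fold lower (adjusted p = 0.0134), at −0.97 with normexp (0.176). A second LPO probe, above background on 0 ductus and 2 aorta arrays, differed by −1.54 and was not called (adjusted p = 0.233). FABP4, a fatty acid carrier of fat cells and capillaries, read −0.25, −0.44, −1.35 and −0.51 against 1.74, 1.42, 1.49 and 1.17 (−2.10 ± 0.55, adjusted p = 0.02). It lost its call with median centring (0.0522) and without ductus replicate 3 (0.0668). ALB, serum albumin, was above background on 0 ductus and 3 aorta arrays and was at least 6.90-fold lower (adjusted p = 0.0342). The ALB difference was −1.44 with normexp, a smaller fold than this bound, and not called (adjusted p = 0.0748). Its call also ended with a replicate block (0.0929), and without any 1 of aorta replicates 3 and 4 and ductus replicates 1, 3 and 4 (up to 0.112). A second ALB probe, above background on 0 ductus arrays and 1 aorta array, differed by −0.55 and was not called (adjusted p = 0.591).

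Markers of the cell types that a piece of vessel can hold were summed, as signals relative to the 75th percentile of each array. Such a sum can rest mostly on its brightest probe, which is named with its share for the lists whose sums differ. The 2 measured smooth muscle markers summed to 84.9 to 145 in the ductus and 65.9 to 148.5 in the aorta, ranges that overlap, with 0 of 2 called. The 6 endothelial markers summed to 2.23 to 3.1 against 0.616 to 1.53, with NOS3 and SELP called higher and FLT1, TEK, KDR and TIE1 not called. NOS3 alone gave 42.3% to 82.2% of the sum on the 8 arrays. FLT1 was below 0 (−2.88 ± 1.26, adjusted p = 0.145), at −1.14 without the arrays above the detection limit. The 5 fibroblast markers summed to 49.3 to 77.9 against 16.1 to 33.4, with C3 and DCN called higher. DCN alone gave 76.7% to 91.3% of that sum, so that it repeats the DCN difference, while COL3A1 and COL1A1 were below 0 and not called. Macrophage markers, of which CD86 of 5 was called (1.38 ± 0.34, adjusted p = 0.0137), summed to 1.21 to 1.88 against 0.963 to 1.76, and lymphocyte markers, of which CXCR4 of 5 was, to 0.326 to 0.776 against 0.166 to 0.789. Both ranges overlap. CD86 lost its call with normexp (0.174) and without ductus replicate 1 (0.0526).

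Markers of fat cells and neutrophils summed higher in the aorta. The 7 adipocyte markers summed to 0.775 to 1.80 in the ductus and 3.78 to 7.48 in the aorta, with FABP4 giving 43.7% to 74.4% of the sum. All 7 were below 0, as were 543 of all 787 named genes, and FABP4 alone was called. The 4 neutrophil markers, BAC5 and CATHL1B called, summed to 0.0278 to 0.211 against 0.274 to 0.902, with CATHL1B giving 15.1% to 55.9%. Neither sum overlapped between the vessels. The 5 skeletal muscle markers summed to 0.0592 to 0.0723 against 0.0742 to 1.20 with 0 called. Those ranges did not overlap either, though they nearly met. MB, myoglobin, gave 66.1% to 73.8% of the sum in the ductus and 12.2% to 64.4% in the aorta. The 5 plasma protein markers summed to 2.01 to 2.52 against 1.74 to 4.17 with ALB called. MYH7, the cardiac marker measured, was above background on 0 ductus and 2 aorta arrays. It ran from 0.0043 to 0.0068 in the ductus and from 0.0077 to 0.095 in the aorta, and was not called. The 6 mast cell and eosinophil markers summed to 2.71 to 5.64 against 2.86 to 5.43 with 0 called. HBB, the red cell marker measured, ran from 2.88 to 16.9 in the ductus and from 0.724 to 6.99 in the aorta. No marker on these lists was below background on all 8 arrays. The part of these cell types in the differences above was not tested.

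The vessels were then compared with those near term, with no array in common between the comparisons. Near-term arrays lay on a slide of their own, with both vessels on it. All near-term ductus arrays lay in row 1 and all near-term aorta arrays in row 2, as on the newborn slide. Vessel and slide row therefore cannot be told apart in a difference seen at both stages. The vessel difference in newborns minus that near term was called for 55 of 13997 probes (0.393%), 48 of them higher after birth and 7 lower, and for 11 named genes (1.4%). Of the 73 genes called higher in newborns 59 were above 0 near term, and 7 of them were called there. Their median difference was 1.59 in newborns and 0.41 near term, and that of all tested probes near term was −0.12. Of the 28 genes called lower 26 were below 0 near term and 2 were called, with medians of −1.67 and −0.61. Since the 101 genes were called in the newborns, a smaller difference near term is partly a matter of this choice.

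For 10 of the 11 named genes the vessel difference was larger in newborns. SLC2A3 stood at 3.05 ± 0.43 (SD, n = 4) in the near-term ductus and 2.57 ± 0.54 in the near-term aorta, against 5.70 ± 0.28 and 1.43 ± 0.26 in newborns. The difference between the stages was 3.8 ± 0.41 (adjusted p = 0.000165), and it kept its call under all alternatives and left-out arrays. PTGS2 stood at −1.73 ± 0.35 and −2.67 ± 0.44 near term against 1.92 ± 0.33 and −2.44 ± 0.54, a change of 3.42 ± 0.42 (adjusted p = 0.000268, and 0.117 with quantile normalisation). SOD2 stood at −0.05 ± 0.15 and 0.59 ± 0.28 near term, a difference that was not called (−0.64, adjusted p = 0.509), and changed by 3.15 ± 0.39 (adjusted p = 0.000268). The SOD2 change was 3.4 without the arrays above the detection limit, where near-term aorta replicate 1 alone was left for that vessel. IL6 was measured on 1 of 4 near-term ductus arrays and 0 near-term aorta arrays, and its fitted change of 5.85 ± 0.76 (adjusted p = 0.000427) was 2.82 with normexp (0.182).

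PTX3 stood at −2.50 ± 0.49 (SD, n = 4) in the near-term ductus and −1.71 ± 0.35 in the near-term aorta, a difference that was not called (−0.79, adjusted p = 0.333), and changed by 2.55 ± 0.41 (adjusted p = 0.00361). TIMP1 changed by 1.72 ± 0.27 (0.0029), MCL1 by 1.74 ± 0.32 (0.0131) and CHI3L1 by 3.11 ± 0.59 (0.0146). Leaving out the arrays above the detection limit left near-term aorta replicate 1 alone for that vessel and stage. In that fit the changes of PTX3, TIMP1, MCL1 and CHI3L1 were 2.76, 0.98, 1.7 and 3.31. The calls of TIMP1 and MCL1 ended with median centring (0.186 and 0.228). That of CHI3L1 ended in a fit of only the 16 near-term and newborn arrays (0.0626). SELP, RCAN1 and INHA changed by 2.61 ± 0.54 (0.0323), 2.31 ± 0.47 (0.0343) and −1.60 ± 0.34 (0.0349). SELP lost the call under 4 alternatives (up to 0.503) and without any 1 of aorta replicates 2 and 4 and ductus replicates 1, 3 and 4. RCAN1 lost it under 3 (up to 0.117) and without any 1 of aorta replicates 1 and 4 and ductus replicates 1, 2 and 4, and INHA under 6 (up to 0.661) and without any 1 of aorta replicates 1, 3 and 4 and ductus replicates 1, 3 and 4.

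Other differences were present before birth at a similar size. IL1A differed by 3.69 near term (adjusted p = 0.0127) and by 4.53 in newborns, EDN1 by 1.53 (0.0262) and 1.74, and SNAI2 by 1.10 (0.00772) and 1.04. NPY1R differed by −1.95 (0.005) near term and −2.40 in newborns, and AQP3 by −1.91 (0.0343) and −2.0. These were among the 9 of 101 genes called at both stages, with ANXA2, CREM, IGFBP2 and TNFRSF11B. VEGFA differed by 0.82 near term, and its change of 3.93 ± 1.02 was not called (adjusted p = 0.134), nor was that of SAA3, at 4.18 ± 0.94 (0.0556).

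**Figure D5:**
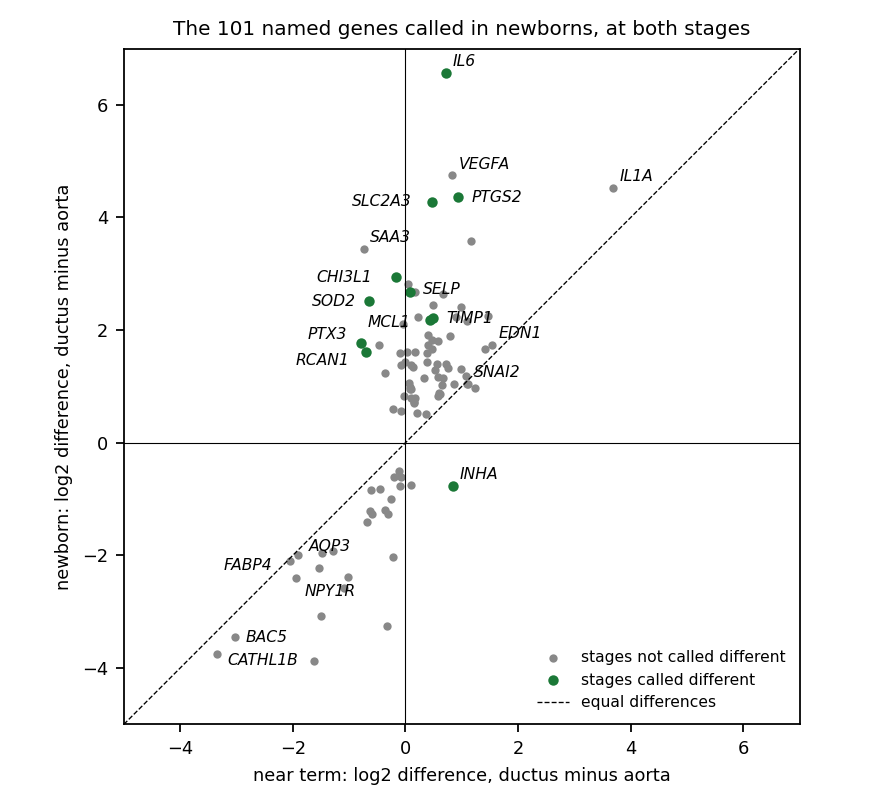
Log2 difference between ductus and aorta in newborns (vertical axis) against that near term (horizontal axis) for the 101 named genes called in newborns, with the 11 whose differences were called unequal in green and a dashed line where both are equal. IL6, SLC2A3 and PTGS2 lie far above the line, and IL1A, EDN1, SNAI2 and NPY1R lie near it.

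Most called probes carry no gene name: 1244 of the 1416 have no symbol here and 172 do. Among the unnamed, probe A_70_P000141 had the largest difference, at 0.18, 0.66, 0.54 and −0.13 in the ductus and −4.94, −7.25, −5.23 and −7.25 in the aorta. Measured on 4 ductus and 0 aorta arrays, it was at least 46.5-fold higher (adjusted p = 7.88e-06), and its fitted difference of 6.48 was 3.60 with normexp and 6.49 near term. Probe A_70_P019681 came next, at 3.74, 1.37, 2.42 and 5.14 against −1.74, −2.89, −2.89 and −2.42 (5.65 ± 0.76, adjusted p = 8.64e-05). It differed by −0.90 near term, a change of 6.55 ± 1.08 (adjusted p = 0.00411). That change was 6.36 without the arrays above the detection limit, where near-term aorta replicate 1 alone was left for that vessel. The largest falls among unnamed probes were those of A_70_P018502 (−4.85 ± 0.77, adjusted p = 0.000432) and A_70_P050846 (−4.74 ± 0.86, 0.00157), at −2.12 and −2.03 with normexp, each above background on 1 of 4 ductus arrays and on all 4 aorta arrays.

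The ductus arrays differed among themselves in a recurring way. Of the 73 genes called higher, ductus replicate 2 was the lowest ductus array in 33, against 8, 19 and 13 for replicates 1, 3 and 4, and ductus replicate 1 was the highest in 28, against 9, 17 and 19 for replicates 2, 3 and 4. SAA3, CHI3L1, SOD2, TSPO and probe A_70_P019681 all had replicate 4 on top, then replicates 1, 3 and 2. Their ranges in the ductus were wide, from 1.58 to 4.38 for CHI3L1 and from 1.37 to 5.14 for the probe, while JUNB, SLC2A3 and TIMP1 lay within 1 log2 unit. The median SD of the genes called higher was 0.36 in the ductus and 0.49 in the aorta.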

How the data were processed

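Total RNA of the ductus arteriosus and the aorta was amplified from its poly(A) end and labelled with the dye Cy3, and each sample had an Agilent array to itself, per the labels' protocols. The deposited unit is linear intensity per spot, with a fitted background surface subtracted by the scanner software (version 9.5.3.1 of Agilent Feature Extraction, run under protocol GE1-v5_95_Feb07), per the file headers, and no further normalisation by the authors is given in the sources used here. The number of arrays limits the precision. Groups came from the labels.

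Control spots and outlier spots were left out, log2 signals were set relative to the 75th percentile of their array, and spots of a probe were averaged. Probes well above background on at least 4 of 24 arrays were tested together, with a mean for each of the 6 groups, by lmFit and eBayes of limma 3.58.1 in R 4.3.3 (two-sided tests, Benjamini-Hochberg, called at 0.05). The script was tested on simulated data. P-values measure the spread between arrays within groups, pooled over all 24 arrays.

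Where 0 arrays of a group measured a probe, the fold is "at least" the bright group's mean over a floor for the dim group. The floor averages, over its arrays, whichever was higher, the probe's signal or the lowest one well above background. The bound is no confidence limit. It holds for the main processing only, and normexp gave folds under it, as for IL6 and ALB. Symbols came from the array's names, its accessions looked up among the RefSeq genes of ARS-UI_Ramb_v3.0, and names read by hand from the descriptions of the array. The other 13536 probes are unnamed here. Named were called genes, the called members of each list with up to 4 others of smallest p, a panel of ductus genes, and the 2 unnamed probes with the largest rise and the 2 with the largest fall. Some of the called genes are not reported here. The comparison, the gene lists and the panel were chosen with earlier results of these data known.

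Alternatives were normexp background correction (offset 50), quantile normalisation, median centring, no filter, 2 stricter filters, outlier spots kept, arrays with a detection limit above 1.5 left out, a replicate block, fits of fewer groups, and each newborn array left out in turn. No sequences were used here.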

Additional observations from a re-analysis of the deposited data

Results flagged for a closer look

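Among 312 groups of 4 arrays, 13 held 1 array far from the other 3, where chance alone would give about 15.6 (Dixon's test at its 95% critical value, which flags about 1 in 20 groups). All values are log2 signals relative to the 75th percentile of the array. In the ductus, SELP read −1.97 on replicate 2 against −0.12 to −0.11 on the others, COL3A1 0.0865 on replicate 2, TNFRSF11B 2.08 on replicate 1, MYLK 6.07 on replicate 3 and JUN 1.77 on replicate 3. The cathelicidins BAC5 and CATHL3 read −3.88 and −4.67 on ductus replicate 1, far above the other ductus arrays, and the unnamed probe A_70_P018502 read −4.88 on ductus replicate 3. In the aorta, HOXA4, HIF1A and LTF read highest on replicate 4, at −0.081, −1.95 and −2.35, TIE1 lowest on replicate 2, at −5.0, and SARS1 highest on replicate 1, at 1.91.

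The vessel difference in newborns was unlike that near term, by a test of the difference itself in limma, for 11 named genes and 1 of the unnamed probes named above. The changes on the log2 scale were 5.85 for IL6, 3.42 for PTGS2, 3.8 for SLC2A3, 3.11 for CHI3L1, 2.61 for SELP, 3.15 for SOD2, 1.72 for TIMP1, 1.74 for MCL1, 2.55 for PTX3, 2.31 for RCAN1, −1.60 for INHA and 6.55 for A_70_P019681. Each stage lay on 1 slide, so that stage and slide cannot be told apart, while both vessels of a stage shared its slide. On each slide the ductus arrays lay in row 1 and the aorta arrays in row 2.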

How the results depend on the processing

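The 1416 calls became 855 with normexp, 853 without arrays above the detection limit, 833 with median centring and 371 in a fit of only the 8 newborn arrays, and ran from 857 to 1592 with 1 newborn array left out. The 55 calls between the stages became 153 without arrays above the detection limit and 33 with median centring, and ran from 39 to 63 with 1 array left out. The 78 called list members became 48 with normexp and 32 in the fit of 8 arrays, and ran from 53 to 73 with 1 array left out. Of 101 called named genes 57 kept the call with every array left out. Of 55 uncalled genes also followed over the alternatives, not all of them named in this text, 18 gained a call somewhere. Among called genes the direction reversed only on other probes of the gene, none of them called: −1.94 for PTGS2, −2.32 for IL18, −0.38 for GAPDH, −1.24 and −1.18 for CREM, and −0.055 and −0.097 for IGF1R. Of the 55 uncalled genes followed 14 changed sign under an alternative or with an array left out, among them PTGER3 (0.26) and MYLK (−0.47) without arrays above the detection limit and CNN1 (0.062) with median centring, and no such value was called. The causes were not tested. Dim signals limit all genes measured on some arrays only, and the description of promoter motifs was not run.

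Samples with the same replicate number correlated at 0.190, 0.149, 0.156 and −0.031 in their deviations from the group means, so that 1 of 4 pairs did not pass 0.1 and the numbers were not taken to pair the vessels, on which the labels are silent. With the replicate number as a block the calls numbered 2005 and those between the stages 89. Ductus replicates 1 to 3 correlated best with their own number and replicate 4 with aorta replicate 1 (0.108). On the newborn slide the replicate number was also the position within each row. A shared lamb and a shared slide position therefore cannot be told apart in these correlations or in the block.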
